A study of Homo sapiens with 30 samples.

Results

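The subject here is how far a telencephalon medium and a hindbrain medium parted the open chromatin of neural ectoderm cells that had first been made posterior. The members are the genomic regions with an ATAC-seq peak in exactly one of the day 4 lists pNE_T (telencephalon medium) and pNE_H (hindbrain medium). Peaks of all 10 deposited lists on chromosomes 1 to 22 were merged wherever they overlapped by at least 1 bp, which gave 476170 regions, and a list counts as open at a region where it has a peak. Of those regions 160865 were open in exactly one of pNE_T and pNE_H. The same rule applied to cells of anterior origin, aNE_T against aNE_H, gave 106587 regions.

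Human H1 embryonic stem cells (an established line, labelled wild-type) were profiled in 10 groups of 3 libraries, each made from 50000 cells. The groups were undifferentiated cells (hPSC), day 1 definitive ectoderm (DE), day 2 anterior and posterior neural ectoderm (aNE and pNE), and both day 2 types after telencephalon, midbrain or hindbrain medium to day 4 (suffix _T, _M or _H). The groups used most here, pNE, pNE_T, pNE_M and pNE_H, shared day 1 in A8301, trametinib, C59 and LDN193189. They also shared day 2 in 1 µM A8301, 100 nM LDN193189, 50 nM TTNPB, 20 ng/mL FGF2, 1 µM XAV939 and thiazovivin. The anterior groups had 1 µM A8301, 100 nM LDN193189, 1 µM C59 and thiazovivin on day 2, without TTNPB, FGF2 or XAV939. A8301 and LDN193189 block the activin/nodal and BMP receptors, TTNPB activates retinoic acid receptors, and C59 and XAV939 inhibit WNT signalling. The protocol describes a forebrain medium that begins with XAV939, LDN193189 and FGF2, and the composition of the midbrain and hindbrain media is not given in the sources used here. Cells kept past day 2 in the posterior protocol were plated at 150000 per square centimetre and those stopped at day 2 at 37500, so day and density cannot be told apart in a comparison of pNE with its day 4 products. Anterior cells kept past day 2 were plated at 75000, so origin and density cannot be told apart between posterior and anterior day 4 groups. All groups come from 1 cell line, and no value per replicate enters these lists, so no difference below carries a replicate error or a test.

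The neural tube is patterned from front to back by graded WNT, FGF and retinoic acid signals, which antagonists keep low at the front. Forebrain territory is marked by factors such as SIX3 and OTX2, the boundary of midbrain and hindbrain by GBX2, PAX2 and WNT1, and the hindbrain by HOX genes of the first 4 paralogue groups. ATAC-seq cuts accessible DNA with the Tn5 transposase, and its peaks away from promoters mostly mark enhancers, whose opening often precedes or accompanies the regulation of a nearby gene.

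pNE_H was by far the longest of the 3 posterior day 4 lists. It held 302355 peaks on chromosomes 1 to 22, pNE_M held 209967 and pNE_T 207744, with median widths of 284, 267 and 287 bp. The peaks covered 125 Mb in pNE_H, 81.2 Mb in pNE_M and 86.4 Mb in pNE_T. A list can be long because more sites are open or because more reads passed the caller's threshold, and with peak positions alone the 2 cannot be told apart. The main counts are therefore given as deposited and again at equal list size, where every list over 207744 peaks was cut to its widest 207744. The cut left pNE_H with no peak narrower than 195 bp while pNE_T kept peaks down to 115 bp, so at equal size a site can count as closed in pNE_H although a narrow peak was called there. A further setting, added after the data were seen, kept only peaks of at least 300 bp in every list, which leaves pNE_H longer (143456 peaks) than pNE_T (99626). In this setting too, a site can count as closed in a list although a narrower peak was called there.

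Promoter windows in exclusive regions, taken from the deposited lists only, are described first. RefSeq promoter windows (GRCh38.p14, from 250 bases before to 50 after a transcript start) were available for 33558 starts on these chromosomes. A window was touched by a pNE_T peak and no pNE_H peak in 402 cases, and in 258 of them the whole merged region was exclusive to pNE_T. The reverse held for 1639 windows, 1114 of them in regions exclusive to pNE_H. In the remaining cases a neighbouring peak of the other list lay in the same merged region, so only the exclusive ones are used. The 8 windows below were picked by list membership and peak width. PAX6, FGFR2, NR2F2 and TFAP2A are the genes of the lists described later with the widest pNE_H-only peak at a window. NPS, WDR49, KMT2C and SLC26A9 are the protein-coding genes outside those lists with the widest exclusive peak over at least 50% of the window. On the pNE_T side the only list gene was GATA2, left out because its 240 bp peak covered 1 base of the window. The exclusive-region requirement, the second group and the omission of GATA2 were chosen after values were seen. Bases inside the exclusive peak are in capitals, 5′ to 3′ along the gene's strand.

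Open in pNE_T and not pNE_H:
NPS, chr10:127549059-127549358, plus strand: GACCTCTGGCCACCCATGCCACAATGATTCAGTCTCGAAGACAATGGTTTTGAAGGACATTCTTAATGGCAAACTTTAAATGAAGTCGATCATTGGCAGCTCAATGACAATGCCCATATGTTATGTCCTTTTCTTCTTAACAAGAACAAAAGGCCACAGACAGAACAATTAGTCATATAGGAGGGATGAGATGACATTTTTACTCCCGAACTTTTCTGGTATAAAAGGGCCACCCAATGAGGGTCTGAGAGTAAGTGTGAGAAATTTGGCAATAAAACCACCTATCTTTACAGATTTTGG
WDR49, chr3:167653893-167654192, minus strand: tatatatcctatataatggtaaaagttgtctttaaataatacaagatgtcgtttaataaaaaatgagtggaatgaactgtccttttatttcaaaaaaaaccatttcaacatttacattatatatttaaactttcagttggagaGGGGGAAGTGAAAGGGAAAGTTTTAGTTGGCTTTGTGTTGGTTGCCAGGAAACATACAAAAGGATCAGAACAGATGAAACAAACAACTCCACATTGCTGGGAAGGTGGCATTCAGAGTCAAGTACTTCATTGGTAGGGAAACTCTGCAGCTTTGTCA
Open in pNE_H and not pNE_T:
PAX6, chr11:31809910-31810209, minus strand: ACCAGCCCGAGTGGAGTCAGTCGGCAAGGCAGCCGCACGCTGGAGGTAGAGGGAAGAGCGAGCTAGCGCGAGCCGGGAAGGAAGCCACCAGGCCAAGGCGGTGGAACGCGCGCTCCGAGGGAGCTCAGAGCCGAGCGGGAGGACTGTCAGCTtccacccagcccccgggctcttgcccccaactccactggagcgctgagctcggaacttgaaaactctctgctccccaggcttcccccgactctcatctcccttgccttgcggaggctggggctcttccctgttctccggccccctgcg
FGFR2, chr10:121531265-121531564, minus strand: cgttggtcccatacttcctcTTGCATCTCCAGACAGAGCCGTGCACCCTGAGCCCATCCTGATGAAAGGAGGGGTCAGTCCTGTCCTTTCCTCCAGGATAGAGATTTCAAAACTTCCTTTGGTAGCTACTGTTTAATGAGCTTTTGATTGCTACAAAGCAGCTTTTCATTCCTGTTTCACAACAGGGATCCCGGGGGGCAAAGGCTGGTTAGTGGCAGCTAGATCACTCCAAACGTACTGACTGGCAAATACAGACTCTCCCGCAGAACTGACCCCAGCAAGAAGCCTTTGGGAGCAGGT
NR2F2, chr15:96332315-96332614, plus strand: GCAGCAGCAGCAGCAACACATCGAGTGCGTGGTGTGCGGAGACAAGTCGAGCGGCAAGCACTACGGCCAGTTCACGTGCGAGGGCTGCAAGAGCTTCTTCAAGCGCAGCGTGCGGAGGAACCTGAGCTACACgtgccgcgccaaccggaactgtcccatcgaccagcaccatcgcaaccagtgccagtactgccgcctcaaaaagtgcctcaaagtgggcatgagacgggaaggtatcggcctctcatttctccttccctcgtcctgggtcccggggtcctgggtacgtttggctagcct
TFAP2A, chr6:10419610-10419909, minus strand: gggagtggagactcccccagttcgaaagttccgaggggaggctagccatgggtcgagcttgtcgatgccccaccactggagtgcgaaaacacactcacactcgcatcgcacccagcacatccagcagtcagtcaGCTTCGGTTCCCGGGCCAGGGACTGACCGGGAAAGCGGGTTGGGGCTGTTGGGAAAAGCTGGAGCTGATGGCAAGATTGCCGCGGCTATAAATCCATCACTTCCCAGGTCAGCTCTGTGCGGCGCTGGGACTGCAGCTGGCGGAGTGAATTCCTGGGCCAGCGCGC
KMT2C, chr7:152435954-152436253, minus strand: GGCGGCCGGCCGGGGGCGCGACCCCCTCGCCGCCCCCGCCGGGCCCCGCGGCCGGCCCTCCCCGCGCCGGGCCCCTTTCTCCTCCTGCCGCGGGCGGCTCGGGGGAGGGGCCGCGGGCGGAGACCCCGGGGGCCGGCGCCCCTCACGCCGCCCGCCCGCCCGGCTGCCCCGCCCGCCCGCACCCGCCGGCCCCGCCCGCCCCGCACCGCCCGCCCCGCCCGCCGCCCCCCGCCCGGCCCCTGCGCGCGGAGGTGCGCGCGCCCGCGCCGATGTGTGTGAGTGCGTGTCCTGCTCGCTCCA
SLC26A9, chr1:205943407-205943706, minus strand: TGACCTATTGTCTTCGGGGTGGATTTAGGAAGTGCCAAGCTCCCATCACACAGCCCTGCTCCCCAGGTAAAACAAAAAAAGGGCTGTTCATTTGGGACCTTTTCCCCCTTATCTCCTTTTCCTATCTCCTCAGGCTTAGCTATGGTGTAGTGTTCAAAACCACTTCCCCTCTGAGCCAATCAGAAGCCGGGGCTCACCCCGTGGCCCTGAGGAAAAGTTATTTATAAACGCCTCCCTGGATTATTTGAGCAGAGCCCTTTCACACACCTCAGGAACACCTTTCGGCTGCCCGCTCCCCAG

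NPS encodes neuropeptide S, and its only window lay whole inside a pNE_T peak of 1105 bp that had a counterpart in pNE_M and in no other list. The printed WDR49 window held 157 bases of a 770 bp peak that was open in every list but pNE_H. Of the 2 WDR49 windows, 1 was touched by both lists. PAX6, a paired-box factor of the neural tube, gave the mirror image: 152 bases of the printed window lay in a 610 bp peak called in every list but pNE_T. PAX6 has 9 windows in the table, 4 of which were touched by both lists, so the gene itself did not lack an open start in pNE_T. FGFR2, an FGF receptor, has 5 windows, and the printed one was touched by a 457 bp peak found in DE and pNE_H alone. Both lists touched 2 of the 5, so this gene too had an open start in pNE_T. NR2F2, an orphan nuclear receptor, had no window touched by both lists: each of its 2 windows was touched by pNE_H and not pNE_T, and the printed peak of 266 bp was also called in pNE, pNE_M and the 3 day 4 anterior lists. TFAP2A, a factor of neural crest and surface ectoderm, showed a 220 bp peak at the printed start in hPSC, DE, pNE_M and pNE_H. Of its 2 windows, 1 was touched by both lists. The KMT2C window, 88.7% G and C, lay whole in a 1371 bp pNE_H peak that was also called in DE, pNE, aNE_H and pNE_M. The SLC26A9 window, at the start of an anion transporter gene, lay whole in a 1143 bp peak called in every list but pNE_T.

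Exclusive promoter windows were poor in CpG, and so were windows touched by neither list. The 11811 windows of the latter kind held a median of 3 CpG and 46% G and C, with a GC box in 13.2%. The median window held 4 CpG dinucleotides on the pNE_T side and 4 on the pNE_H side, against 25 in the 19706 windows touched by both lists and 14 over all windows. Median G and C content was 49.0% for pNE_T, 50.0% for pNE_H and 65.3% for windows touched by both. The GC box GGGCGG, searched like every motif here on both strands, was present in 14.0% of pNE_T-only windows, 17.4% of pNE_H-only windows and 45.0% of all windows. The TATA box TATAAA was present in 13.2%, 14.1% and 11.6%, and the CCAAT box CCAAT in 34.9%, 34.0% and 34.4%. The SOX core ACAATGG was present in 6.98% of pNE_T-only windows, 3.68% of pNE_H-only windows and 3.21% of all. The OTX core TAATCC was present in 5.81%, 8.17% and 6.37%, the TCF/LEF core ATCAAAG in 2.33%, 3.95% and 2.61%, the ETS core CCGGAAG in 3.88%, 2.42% and 10.2%, and the POU octamer ATGCAAAT in 1.94%, 2.33% and 1.75%. In windows touched by neither list the TATA box was present in 21.2%, the CCAAT box in 36.5% and the SOX core in 4.67%. The OTX, TCF/LEF and ETS cores and the POU octamer were present there in 9.29%, 4.29%, 2.95% and 2.40%. None of these 8 motifs contains another, and a match is only a run of letters in the window. Among the printed windows the TATA letters occur in NPS, TFAP2A and SLC26A9, the CCAAT letters in NPS, WDR49 and SLC26A9, the SOX letters in NPS, the OTX letters in SLC26A9 and the GC box in KMT2C.

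Most exclusive regions lay away from promoters. As deposited, 33680 regions were open in pNE_T and not pNE_H (10.4% of those open in either), 127185 in pNE_H and not pNE_T (39.2%) and 163192 in both (50.4%). At equal list size the split was 56148, 61072 and 140724 regions, so the surplus on the hindbrain side shrank to a near balance. With peaks of at least 300 bp it was 17067, 60489 and 80373. As deposited, pNE_T-only regions numbered only 4666, 1426 and 264 in the width classes from 300, 500 and 800 bp. For pNE_H-only regions these numbers were 20748, 6819 and 1235. Most of the 17067 and of the 60489 regions thus held a narrower peak of the other list. Since pNE_T is not cut at equal size, all 61072 pNE_H-only regions of that setting are also exclusive as deposited, whereas 22468 of the 56148 pNE_T-only regions (40.0%) had a pNE_H peak in the deposited list.

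**Figure D1:**
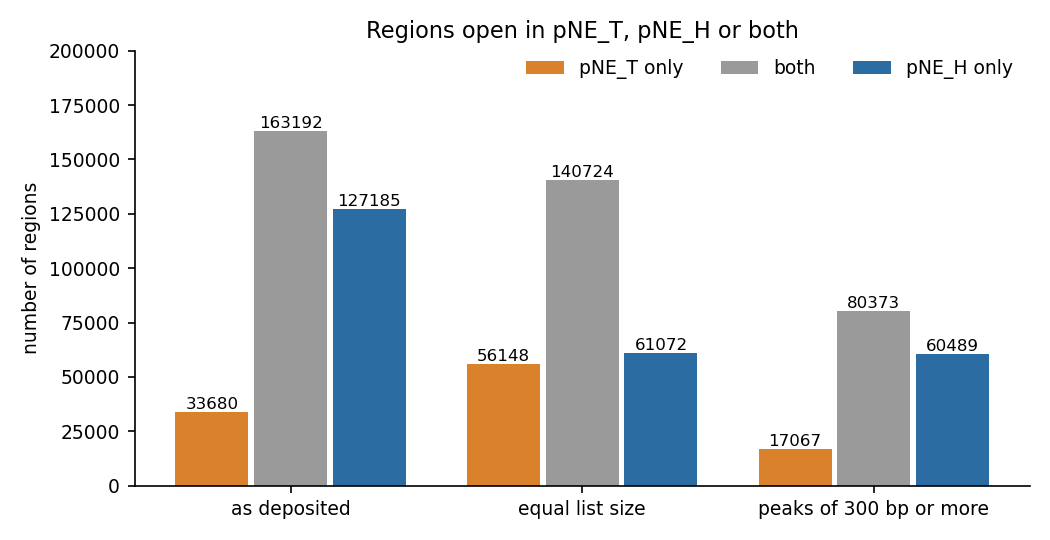
Number of regions open in pNE_T only, in both lists and in pNE_H only, as deposited, at equal list size and with peaks of at least 300 bp; bars start at 0 and each group is 1 peak list, so there are no error bars. pNE_H-only regions outnumber pNE_T-only ones as deposited (127185 against 33680) and the counts lie close together at equal size (61072 against 56148).

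The exclusive regions of the 2 sides resembled each other in position. As deposited, 7.70% of pNE_T-only and 7.59% of pNE_H-only regions lay within 1 kb of the end of an annotated gene, against 17.4% of regions open in both. Inside a protein-coding gene lay 49.7% of pNE_T-only regions, 47.0% of pNE_H-only and 50.6% of shared regions. Median region widths were 242, 256 and 625 bp, so shared regions were the broad ones. The sides differed by chromosome at equal size: of the exclusive regions, the pNE_T-only share was lowest on chromosome 13 (41.3%) and chromosome 4 (43.1%) and highest on chromosomes 22 (56.1%) and 20 (55.8%).

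Cells in midbrain medium were closed at most regions of either kind and were open more often at hindbrain-only than at telencephalon-only regions. pNE_M had a peak at 4636 of the 33680 pNE_T-only regions (13.8%, Wilson 95% interval 13.4 to 14.1) and at 37739 of the 127185 pNE_H-only regions (29.7%, 29.4 to 29.9). These intervals cover counting error over regions only. At equal size the shares were 25.2% (24.9 to 25.6) and 39.8% (39.4 to 40.2), and with peaks of at least 300 bp 13.1% (12.6 to 13.6) and 28.4% (28.0 to 28.8). At regions open in both lists, pNE_M was open at 77.6% as deposited. In each of these 3 settings the share was higher at pNE_H-only regions.

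Counted the other way, which end pNE_M resembled depended on the length of the lists. pNE_M had the telencephalon state, open at a pNE_T-only region or closed at a pNE_H-only region, at 58.5% of the 160865 exclusive regions as deposited and the hindbrain state at 41.5%. At equal size the order turned, with 43.5% in the telencephalon state and 56.5% in the hindbrain state. With peaks of at least 300 bp it was 58.7% and 41.3%. Most of the telencephalon state as deposited came from the many pNE_H-only regions at which pNE_M had no peak.

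The preference of pNE_M for hindbrain-only regions was greatest at wide peaks. As deposited, pNE_M was open at 20.1% of pNE_H-only regions whose widest pNE_H peak was under 200 bp, at 32.4% from 200 to below 300 bp, 44.7% from 300 to below 500 bp, 59.2% from 500 to below 800 bp and 72.9% (70.3 to 75.3) of the 1235 regions with a peak of 800 bp or more. At pNE_T-only regions the same shares were 11.8%, 14.7%, 17.8%, 21.1% and, over 264 regions, 20.5% (16.0 to 25.7). At equal size the widest class gave 72.4% (69.8 to 74.8) for pNE_H-only and 31.1% (26.9 to 35.7) for pNE_T-only regions, and the narrowest 28.4% and 23.4%. In that narrowest class the cut left only pNE_H peaks of 195 bp or more, so its sides differ in width. The widest hindbrain-only sites were thus mostly shared with midbrain medium, and the widest telencephalon-only sites were not. The rise with width was not particular to pNE_M. As deposited, pNE was open at 19.4% of pNE_H-only regions under 200 bp and 61.9% of those from 800 bp. The same shares were 21.1% and 65.2% for aNE_H and 14.8% and 44.2% for aNE_T. At pNE_T-only regions from 800 bp, pNE was open at 28.4%, aNE_H at 15.5% and aNE_T at 44.7%.

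**Figure D2:**
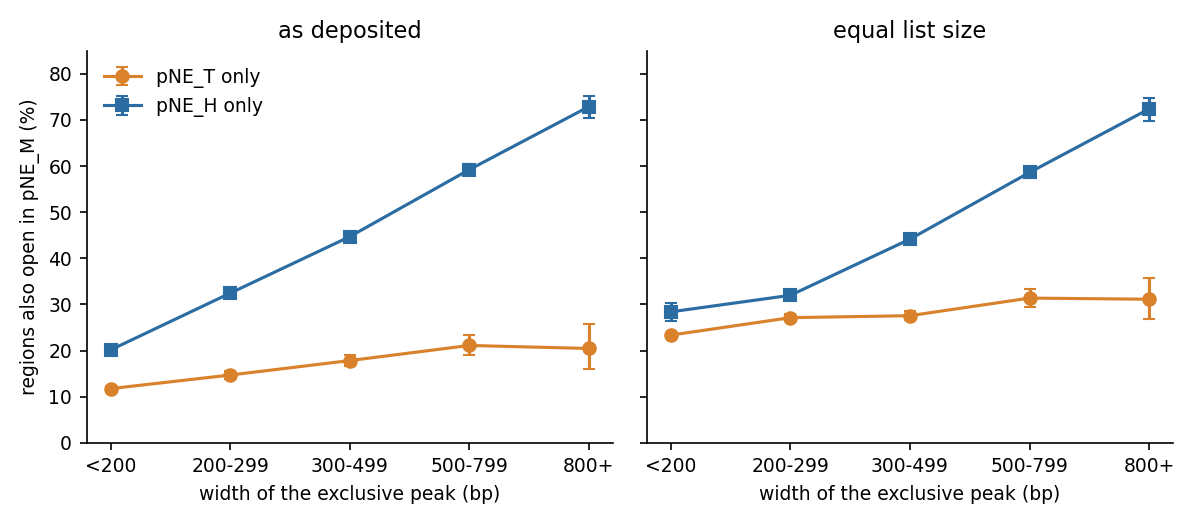
Percent of exclusive regions also open in pNE_M by the width of the exclusive peak (bp, 5 classes), as deposited (left) and at equal list size (right); bars are Wilson 95% intervals over regions, which cover counting error only. pNE_H-only regions go from 20.1% to 72.9% as deposited, and pNE_T-only regions stay between 11.8% and 21.1%.

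Most exclusive regions had no peak at day 2. As deposited, pNE was open at 18.1% of pNE_T-only regions (Wilson 95% interval 17.6 to 18.5) and 27.4% of pNE_H-only regions (27.2 to 27.7), and at equal size at 30.4% and 36.3%. The order turned at narrow peaks in the latter setting and not as deposited. At equal size, under 200 bp, pNE was open at 27.8% of pNE_T-only and 25.9% of pNE_H-only regions. From 200 to below 300 bp the shares were 32.5% and 30.1%, and at 800 bp or more 37.5% and 61.9%. As deposited the narrow classes gave 14.8% and 19.4%, then 19.8% and 30.1%. The cut left no pNE_H peak under 195 bp, so the narrowest class at equal size sets 2088 pNE_H-only regions against 32133 pNE_T-only ones. Taking day 2 and midbrain medium together, 73.8% of pNE_T-only regions were closed in both pNE and pNE_M, 12.5% were open in pNE alone of the 2, 8.18% in pNE_M alone and 5.58% in both. For pNE_H-only regions these shares were 57.1%, 13.2%, 15.5% and 14.2%. Regions that hindbrain and midbrain medium both kept from day 2, and telencephalon medium did not, numbered 18083. Regions that telencephalon and midbrain medium kept, and hindbrain medium did not, numbered 1881. At equal size these numbers were 13076 and 8389, and with peaks of at least 300 bp 8586 and 977. How much of the gap goes with list length was not tested. Regions closed in both pNE and pNE_M were 59.3% of pNE_T-only and 45.3% of pNE_H-only regions at equal size.

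Among the day 4 anterior lists, aNE_T was open more often than aNE_H at pNE_T-only regions and less often at pNE_H-only regions. aNE_M lay between them at pNE_T-only regions and had the largest of these shares at pNE_H-only regions. Of pNE_T-only regions 28.4% were open in aNE_T, 22.8% in aNE_M and 13.1% in aNE_H. Of pNE_H-only regions 19.9% were open in aNE_T, 30.8% in aNE_M and 29.7% in aNE_H. At equal size the corresponding shares were 37.9%, 34.5% and 24.5% for pNE_T-only regions and 25.7%, 39.4% and 39.1% for pNE_H-only regions. The pNE and aNE groups share their hPSC and DE stages, and here each comparison has its own day 4 lists. Counted from the posterior sets, regions exclusive in both origins were more often on the same side. Of pNE_T-only regions 20.3% were aNE_T-only (13.3% of all aNE_T-only regions) and 4.95% aNE_H-only (3.02% of those). Of pNE_H-only regions 17.0% were aNE_H-only (39.3% of all aNE_H-only regions) and 7.30% aNE_T-only (18.0% of those). Counted from the anterior side as deposited, the aNE_T-only regions were more often pNE_H-only (9279) than pNE_T-only (6825), and at equal size less often (4537 and 11308). At equal size the same-side shares of the posterior sets were 20.1% and 20.8%, and the opposite-side shares 6.77% and 7.43%. Regions open in neither aNE_T nor aNE_H made up 66.6% of pNE_T-only and 63.1% of pNE_H-only regions.

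**Figure D3:**
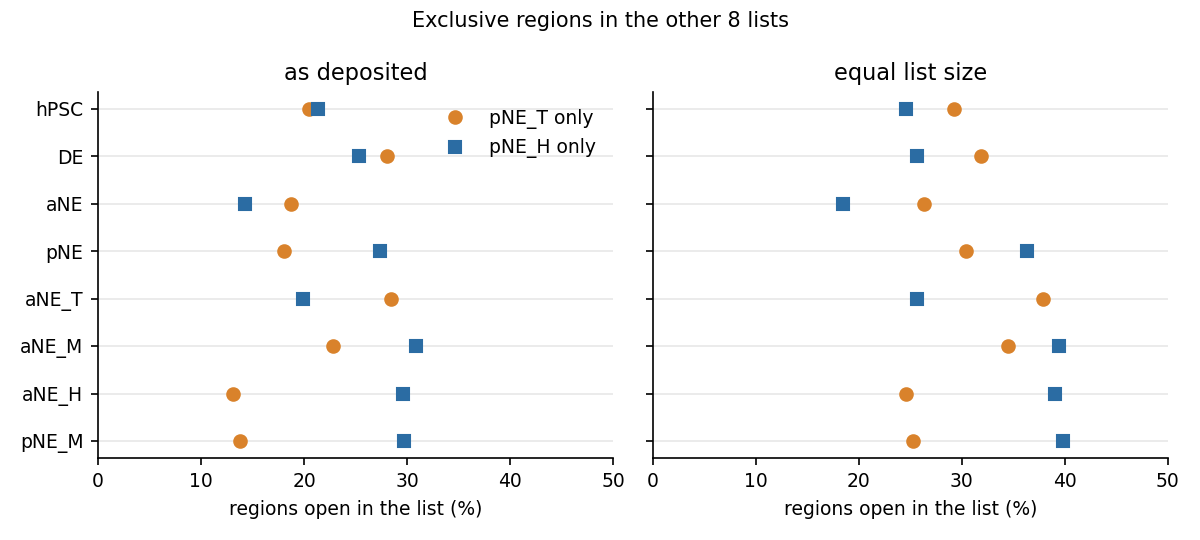
Percent of pNE_T-only (circles) and pNE_H-only (squares) regions open in each of the other 8 lists, as deposited (left) and at equal list size (right); each point is 1 list, with Wilson intervals narrower than the symbols. pNE_T-only regions are more often open in aNE_T (28.4% against 19.9% as deposited) and pNE_H-only regions in pNE_M (29.7% against 13.8%), aNE_H and pNE.

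The undifferentiated and early lists had somewhat larger shares at pNE_T-only regions, apart from hPSC as deposited and with peaks of at least 300 bp. hPSC was open at 20.5% of pNE_T-only and 21.4% of pNE_H-only regions as deposited, at 17.8% and 20.4% with peaks of at least 300 bp, and at 29.3% and 24.6% at equal size. DE was open at 28.0% and 25.3% as deposited and 31.9% and 25.7% at equal size, and day 2 aNE at 18.7% and 14.3% and then 26.4% and 18.5%. In the latter setting the DE and aNE gaps were at least as wide as that of day 2 pNE, which went the other way (30.4% and 36.3%). Many members belonged to 1 list: 16390 pNE_T-only regions (48.7%) and 50360 pNE_H-only regions (39.6%) were open in no other list. At the opposite end, 413 pNE_T-only regions were open in every list but pNE_H, and 3914 pNE_H-only regions in every list but pNE_T.

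The widest exclusive peaks away from gene ends show both patterns. On the telencephalon side the widest was chr15:34994658-34996215 (hg38, 1558 bp), inside the long noncoding RNA gene LOC105370764 and 6.30 kb from the nearest gene end, open in 6 lists, pNE_M not among them. Next came chr1:114037021-114038486 (1466 bp), outside any gene and open in 8 lists, and chr7:136272333-136273781 (1449 bp), inside the long noncoding RNA gene LOC105375523 and called in pNE_T alone. On the hindbrain side the widest was chr12:6141223-6143007 (1785 bp), outside any gene and open in every list but pNE_T. It was followed by chr2:99673081-99674759 (1679 bp), inside AFF3 and open in DE, pNE, pNE_M and pNE_H, and by chr16:79429294-79430971 (1678 bp), inside the annotated span of MAF and open in every list but pNE_T.

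Exclusive regions were then counted around genes. For each of 19122 protein-coding genes, regions in the gene and 50 kb on either side were counted, and a gene with at least 5 regions open in either list was said to lean to a side if that side's exclusive count plus 1 was at least 2 times the other's plus 1 and the difference was at least 3. As deposited, 61.8% of 18116 genes leaned to pNE_H and 0.861% to pNE_T (11193 and 156 genes), in lists of unequal length. At equal size 10.9% of 17886 genes leaned to pNE_H (1942) and 14.3% to pNE_T (2554). With peaks of at least 300 bp, 42.4% and 0.669% of 16600 genes did. Cutting pNE_H can only lower its exclusive counts and raise those of pNE_T, so by construction the 1942 genes also leaned to pNE_H as deposited, and the 156 also leaned to pNE_T at equal size. The genes leaning to pNE_H at equal size were somewhat long, with a median of 32.4 kb against 28.7 kb for those leaning to pNE_T and 26.7 kb for all tested. Leans of single genes at equal size were also looked up in the other settings, where pNE_H is the longer list. Of 43 genes chosen for naming that leaned to pNE_T at equal size, 6 also leaned that way as deposited and 8 leaned to pNE_H, and with peaks of at least 300 bp 1 leaned to pNE_T and 7 to pNE_H. Of 31 that leaned to pNE_H at equal size, 29 also did so with peaks of at least 300 bp, SPRY2 and KRT18 being the exceptions. A longer pNE_H list favours pNE_H leans in both of those settings. These numbers therefore cannot show which side's leans are firmer. In what follows, pairs of counts are pNE_T-only and then pNE_H-only regions, and a lean is at equal size unless stated, to be read against 14.3% and 10.9%. Leans as deposited are to be read against 0.861% and 61.8%, and those with peaks of at least 300 bp against 0.669% and 42.4%.

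**Figure D4:**
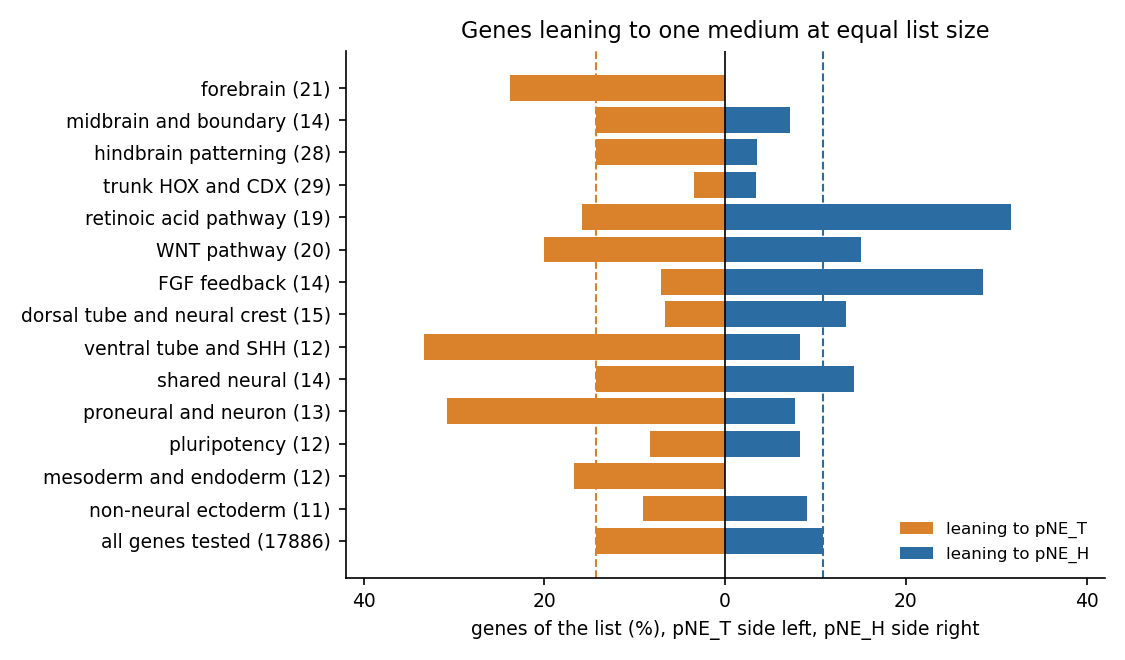
Percent of the genes of each of 14 lists leaning to pNE_T (left) or pNE_H (right) at equal list size, with the number of genes tested in brackets; dashed lines are the shares over all genes tested (14.3% and 10.9%). The retinoic acid and FGF feedback lists extend furthest to the pNE_H side, and the ventral, proneural and forebrain lists furthest to the pNE_T side.

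Forebrain genes had more pNE_T-only than pNE_H-only regions at equal size and the reverse in the other settings, as did most of all genes in those. Of 21 genes, 5 leaned to pNE_T and 0 to pNE_H, the median difference (pNE_H-only minus pNE_T-only) was -1 against 0 over all genes, and pNE_T-only regions were the more numerous at 15 genes and the fewer at 5, against 7953 and 7021 of all 17886 genes. As deposited 13 leaned to pNE_H, where 61.8% of all genes did, and 0 to pNE_T, with a median of 3 against 4 over all genes. Under the 300 bp minimum 8 leaned to pNE_H, where 42.4% of all genes did, and 0 to pNE_T. SIX3, a homeobox factor of the anterior forebrain and eye field, had 4 and 3 exclusive regions as deposited, 9 and 2 at equal size and 4 and 5 with peaks of at least 300 bp. RAX, needed for the eye field, went from 2 and 3 to 4 and 0. DLX2 and OTX1, homeobox factors of the ventral forebrain and of the forebrain and midbrain, had 4 and 1 each at equal size. As deposited DLX2 had 3 and 4 and OTX1 2 and 3, and with peaks of at least 300 bp OTX1 leaned to pNE_H with 0 and 3, while DLX2 had 0 and 1. These are small numbers beside the shared sites, with 21 regions open in both lists around SIX3 as deposited. The widest pNE_T-only peak at SIX3 spanned 545 bp (chr2:44938668-44939212, in LINC01833) and was open in 7 lists. At DLX2 a 243 bp peak inside the gene (chr2:172100085-172100327) and at OTX2 a 316 bp peak (chr14:56769624-56769939) were called in pNE_T alone. OTX2 as a whole leaned to pNE_H as deposited with 3 and 9 and had 5 and 3 at equal size, and its widest pNE_H-only peak, 426 bp long, was open in every list but pNE_T. LHX2, a LIM homeobox factor, had 3 and 12 as deposited and 3 and 6 at equal size, and its widest pNE_H-only peak (426 bp, in the gene) was open in every list but pNE_T.

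Around the midbrain and its boundary with the hindbrain, 1 of 14 genes leaned to pNE_H and 2 to pNE_T, with a median difference of -2. SP5, a zinc-finger gene known as a direct WNT target, had 0 pNE_T-only regions in either setting and 7 pNE_H-only as deposited, 4 at equal size. pNE_M was open at 1 of the 7 as deposited, and at all 4 of the pNE_H-only regions found with peaks of at least 300 bp. Most of those 4 therefore also held a pNE_T peak narrower than 300 bp. GBX2, which sets the hindbrain side of the boundary, had 3 and 6 as deposited and 6 and 1 at equal size. WNT1, expressed at the boundary, had 2 and 3 and then 3 and 0, with a 679 bp pNE_T-only peak 0.814 kb from a gene end inside the neighbouring ARF3 that no other list held.

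Hindbrain patterning genes leaned to pNE_H more often than all genes in the settings where pNE_H is the longer list, and not at equal size. This was not particular to them. As deposited 16 of 20 WNT, 12 of 15 dorsal and crest, 24 of 29 trunk HOX and CDX and 10 of 11 non-neural ectoderm genes leaned to pNE_H. Lower shares were seen for proneural (6 of 13), pluripotency (5 of 12) and mesoderm and endoderm genes (7 of 12). Of 28 genes, 21 leaned to pNE_H and 0 to pNE_T as deposited, against 61.8% of all genes, and 1 leaned to pNE_H and 4 to pNE_T at equal size, with a median difference of -1. Under the 300 bp minimum 17 leaned to pNE_H and 0 to pNE_T, against 42.4% of all genes. NR6A1, an orphan nuclear receptor, was the gene that leaned to pNE_H, with 3 and 33 as deposited and 5 and 15 at equal size over a gene of 254 kb. EPHA4, an Eph receptor of the rhombomeres, had 4 and 19, then 6 and 12, and pNE_M was open at 10 of the 19. GBX1, a homeobox factor, went the other way at equal size with 7 and 3, as did MEIS3 with 6 and 2 and NR2F1 with 6 and 2. Of these, NR2F1 leaned to pNE_H as deposited, with 2 and 6. Under that minimum MEIS3 (0 and 3) and NR2F1 (1 and 7) leaned to pNE_H and GBX1 had 2 and 2.

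The HOX clusters were mostly open in both media. Across the span of each cluster's genes, regions open in both lists numbered 24 in HOXA, 38 in HOXB, 26 in HOXC and 28 in HOXD as deposited. Exclusive regions numbered 3 and 11 in HOXA, 5 and 18 in HOXB, 3 and 7 in HOXC and 1 and 12 in HOXD. At equal size they were 3 and 3, 8 and 8, 7 and 3, and 3 and 4. With peaks of at least 300 bp they were 3 and 6, 3 and 12, 6 and 4, and 2 and 5, so the surplus on the hindbrain side in HOXA, HOXB and HOXD was lost at equal size and not under that minimum. In HOXB, pNE_M was open at 11 of the 18 pNE_H-only regions. A wide pNE_H-only peak inside HOXA3 (chr7:27148363-27149240, 878 bp) was called in pNE_M and pNE_H and in no other list. Another beyond the HOXB1 end of HOXB (chr17:48513859-48514517, 659 bp) and one in HOXD3 (chr2:176158889-176159513, 625 bp) were shared with pNE_M too, the latter also with aNE_M. Genes of a cluster share their windows, so the members of the HOX lists are not separate cases. Of 29 trunk HOX and CDX genes, 24 leaned to pNE_H and 0 to pNE_T as deposited, 16 and 0 with peaks of at least 300 bp, and 1 to each side at equal size. Over all genes 61.8% leaned to pNE_H as deposited and 42.4% with peaks of at least 300 bp. CDX2, a caudal factor of the trunk, had 1 and 9 as deposited and 1 and 5 at equal size, and its widest pNE_H-only peak (chr13:27964858-27965360, 503 bp, in the gene) was called in pNE_M and pNE_H alone. HOXC11 leaned to pNE_T with 5 and 2.

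Genes of the retinoic acid pathway leaned to both sides. Of 19 genes, 6 leaned to pNE_H and 3 to pNE_T, with a median difference of 1. As deposited 13 leaned to pNE_H and 0 to pNE_T, and with peaks of at least 300 bp 12 and 1. The pNE_H shares over all genes were 61.8% and 42.4% in these settings. The 3 retinaldehyde dehydrogenases, which make retinoic acid, stood on the hindbrain side: ALDH1A1 had 1 and 10 as deposited and 2 and 5 at equal size, ALDH1A2 had 0 and 9 and then 2 and 5, and ALDH1A3 had 1 and 12 and then 3 and 7. STRA6, the receptor for retinol-binding protein, had 1 and 15 and then 3 and 9, and pNE_M was open at 8 of the 15. NRIP1, a corepressor known as a retinoic acid target, had 2 and 25 and then 4 and 11, and pNE_M was open at 0 of the 25, while day 2 pNE was open at 7. RXRG, a retinoid X receptor, had 2 and 10 and then 2 and 5. The enzymes that degrade retinoic acid were divided. CYP26A1 had 2 and 4 as deposited and 4 and 1 at equal size, CYP26C1, its neighbour on chromosome 10, had 3 and 4 and then 6 and 1, and the 2 genes share part of their windows. CYP26C1 also leaned to pNE_T with peaks of at least 300 bp (5 and 1). CYP26B1 had more pNE_H-only regions in each setting, with 2 and 8 as deposited, 2 and 4 at equal size and 1 and 6 with peaks of at least 300 bp, and leaned in the first and last of these. CRABP1, which binds retinoic acid in the cytoplasm, had 4 and 2 and then 11 and 2, and turned to a pNE_H lean with peaks of at least 300 bp (1 and 5). RARB, the longest gene of the list at 769 kb, had 21 and 72 as deposited and 29 and 31 at equal size. At RARA a 930 bp pNE_H-only peak (chr17:40306998-40307927), outside any gene and 1.09 kb from the nearest gene end, was called in 8 lists, and the gene's counts were 3 and 7 and then 8 and 4.

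At FGF feedback genes the hindbrain side was the fuller one. Of 14 genes, 4 leaned to pNE_H and 1 to pNE_T, with a median difference of 1. As deposited 11 leaned to pNE_H and with peaks of at least 300 bp 8, against 61.8% and 42.4% of all genes. SPRY2, a Sprouty inhibitor induced by FGF, had 0 pNE_T-only regions in either setting and 15 pNE_H-only as deposited, 7 at equal size. The 15 lay on both sides of the gene, and pNE_M was open at 5 and day 2 pNE at 3 of them. DUSP6 and DUSP4, phosphatases that act on ERK, had 1 and 14 and then 2 and 7, and 1 and 9 and then 2 and 5. ETV1, an ETS factor downstream of FGF, had 0 and 11 and then 2 and 6. FGFR1, a receptor, was the exception with 3 and 7 as deposited and 7 and 3 at equal size. At the 300 bp minimum SPRY2 had 0 and 2, below the lean rule, and DUSP6 had 1 and 10.

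WNT pathway genes split as well, with 3 of 20 leaning to pNE_H and 4 to pNE_T and a median difference of -1. As deposited 16 leaned to pNE_H and with peaks of at least 300 bp 13, against 61.8% and 42.4% of all genes, with 0 to pNE_T in both. AXIN2, a negative feedback target of WNT, had 0 and 11 as deposited and 3 and 8 at equal size, with pNE_M open at 6 of the 11. FRZB, a secreted WNT antagonist, had 2 and 12 and then 3 and 7. LEF1, a nuclear effector, was the reverse with 14 and 14 as deposited and 17 and 6 at equal size. pNE_M and day 2 pNE were open at 0 of those 14 pNE_T-only regions. They included an intragenic peak of 1084 bp (chr4:108086938-108088021) called in pNE_T and in none of the other 9 lists. WNT5A, a ligand, had 4 and 11 and then 8 and 3, and the receptor gene FZD5 had 4 and 5 and then 5 and 1.

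**Figure D5:**
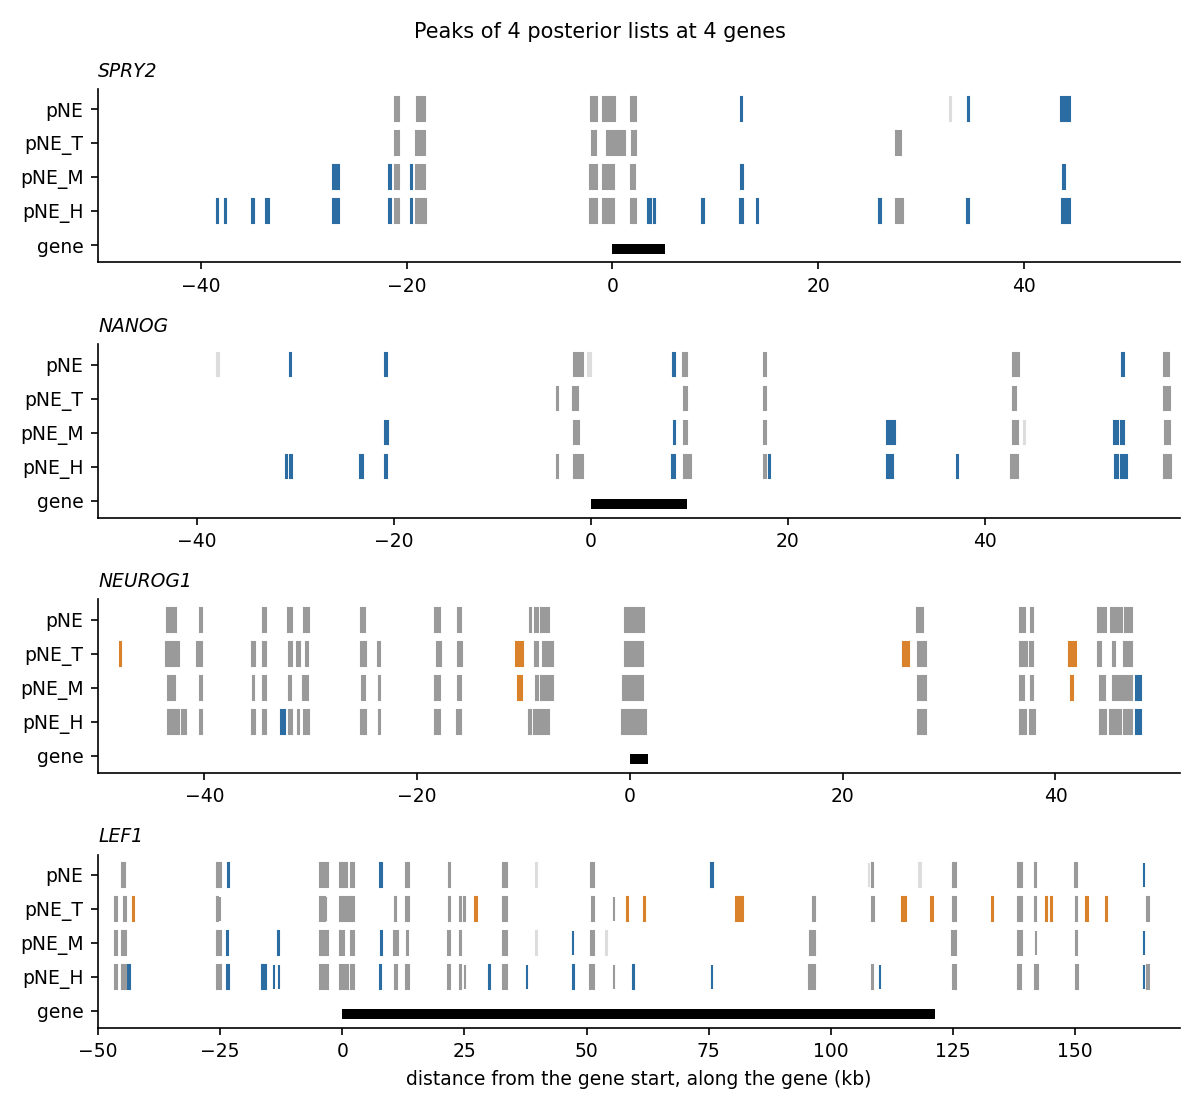
Peaks of pNE, pNE_T, pNE_M and pNE_H around SPRY2, NANOG, NEUROG1 and LEF1, as deposited, by distance from the gene start along the gene (kb), with the gene as a black bar. Orange peaks lie in pNE_T-only regions, blue in pNE_H-only, dark grey in regions open in both and light grey in neither; SPRY2 has 15 blue regions and no orange one, and LEF1 has 14 orange regions without a pNE or pNE_M peak.

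Ventral and neuronal genes had the largest shares of genes leaning to pNE_T among the 14 lists at equal size, and more pNE_H than pNE_T leans in the other settings. Genes in general also leaned more often to pNE_H in those settings, 61.8% as deposited and 42.4% with peaks of at least 300 bp. Among ventral tube and SHH genes 4 of 12 leaned to pNE_T and 1 to pNE_H, against 1 and 8 as deposited and 0 and 5 with peaks of at least 300 bp. The ventral list as a whole was near balance at equal size. Summed over its genes it had 61 and 60 exclusive regions, with a median difference of -0.5. pNE_T-only regions were the more numerous at 6 of its genes and the fewer at 4. NKX2-2, a ventral progenitor factor, had 6 and 2 as deposited, a lean to pNE_T in both settings, and 6 and 0 at equal size. FOXA2, a floor plate factor, had 6 and 2 and NKX6-2 had 4 and 1 at equal size, against 3 and 4 and 3 and 5 as deposited. GLI3, a transcriptional effector of SHH signalling, leaned to pNE_H with 3 and 27 and then 5 and 13, and pNE_M was open at 12 of the 27. Among proneural and neuron genes 4 of 13 leaned to pNE_T and 1 to pNE_H, against 1 and 6 as deposited and 0 and 4 with peaks of at least 300 bp. Their sums at equal size were 40 and 20, with a median difference of -1. NEUROG1, a proneural factor, had 5 and 2 as deposited and 8 and 2 at equal size, with pNE_M open at 2 of the 5 and day 2 pNE at 0. ELAVL3, a neuronal RNA-binding protein gene, had 2 and 1 and then 6 and 0, and TUBB3, the neuronal tubulin gene, 3 and 2 and then 5 and 0. DLL1, a Notch ligand, had 5 and 2 at equal size and 1 and 4 as deposited. ELAVL4 went against its family member with 1 and 8 and then 1 and 5. At the 300 bp minimum NEUROG1 had 4 and 5 and NKX2-2 had 3 and 3.

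The other lists stood nearer the background at equal size, the setting of the values that follow. Among 15 dorsal tube and neural crest genes 2 leaned to pNE_H and 1 to pNE_T: SNAI2, a crest factor, had 3 and 8, SOX9 had 2 and 6, and GDF7, a roof plate ligand, had 4 and 1. Among 14 shared neural genes 2 leaned to each side, SOX1 and SOX11 with 4 and 1 being those of pNE_T. Of 12 pluripotency genes 1 leaned to each side: NANOG had 0 and 10 as deposited and 1 and 6 at equal size, with pNE_M open at 5 of the 10 and day 2 pNE at 4, and POU5F1 had 3 and 0 and then 4 and 0. Of 12 mesoderm and endoderm genes 0 leaned to pNE_H and 2 to pNE_T, HNF4A with 6 and 2 and GSC with 4 and 1. Of 11 non-neural ectoderm genes 1 leaned to each side, KRT18 with 0 and 3 and GATA2 with 9 and 1. Of the pNE_T leans in these lists, those of SOX1, GDF7 and GATA2 turned to pNE_H with peaks of at least 300 bp (1 and 5, 0 and 4, and 2 and 5), and SOX1, HNF4A and GSC leaned to pNE_H as deposited (2 and 5, 1 and 7, and 1 and 7). Peaks show accessibility and not expression, so these counts do not tell which cell types were present.

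Over all genes, the largest differences lay in very long genes, whose wider windows hold more regions to count. At equal size the pNE_H side was led by PARD3B (20 and 50), MAPK10 (11 and 39), SPAG16 (12 and 38), GMDS (17 and 41) and CCSER1 (12 and 36), which span 584 to 1478 kb. PARD3B, a paralogue of the polarity gene PARD3, had 10 and 83 as deposited, and pNE_M was open at 38 of the 83. MAPK10 encodes the neuronal kinase JNK3, and pNE_M was open at 28 of its 65 pNE_H-only regions as deposited. The pNE_T side was led by KIAA1217 (45 and 20), ADAMTS12 (29 and 10), UNC13C (25 and 7), CLSTN2 (26 and 10) and RASGRF2 (19 and 3). As deposited 4 of these 5 had more pNE_H-only regions: KIAA1217 with 31 and 42, UNC13C with 15 and 19, CLSTN2 with 14 and 33, a lean to pNE_H, and RASGRF2, an exchange factor for Ras and Rac, with 12 and 13. ADAMTS12, a secreted protease gene, had 24 and 20. By the share of regions that differed, among genes with at least 15 open in either list, FEZ2 (0 and 9), HAAO (0 and 8), MUC15 (1 and 10), SPAG17 (1 and 14) and PPA2 (2 and 11) led the pNE_H side. TTC34 (13 and 0), ELOVL7 (8 and 0), UBE2F (8 and 0), IGFL1 (9 and 0) and TOX3 (13 and 1) led the pNE_T side. Of these, TTC34, ELOVL7 and IGFL1 leaned to pNE_T as deposited as well, with 10 and 3, 5 and 1, and 7 and 2. ELOVL7 elongates fatty acids, and neither pNE_M nor day 2 pNE was open at any of its 5 pNE_T-only regions as deposited, whereas at TTC34 pNE_M was open at 4 and day 2 pNE at 5 of the 10.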

How the data were processed

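OmniATAC-seq was made from H1 cells and sequenced on an Illumina NovaSeq, per the labels' protocols. The authors deposited 1 peak list per group, as chromosome, start and end positions with no score, p-value or count, and these are the only values used. The submitters' processing notes name hg38, FastQC, Bowtie2, MACS2, bedtools, featureCounts, edgeR and deepTools without versions or roles, and how the 3 libraries of a group were combined, the calling threshold and the depth per library are not given in the sources used here. A peak list turns signal into present or absent, so a site near the threshold can differ between lists without differing much in signal, and list length enters every count.

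Peaks on chromosomes 1 to 22 were merged at an overlap of at least 1 bp (Python 3.11.15, numpy 2.4.6, pandas 2.3.3). Equal size kept the widest 207744 peaks of each longer list; width is not strength. Intervals are Wilson 95%. Gene spans and promoter windows were from RefSeq (GRCh38.p14), and all 234 genes of 14 lists matched, 1 of them through an older symbol; 157 had a promoter window in the table. Counting was tested on simulated lists. With 1 list per group there is no replicate error and no test. Members, lists and rules were chosen with earlier results of these data known. Genes named are up to 5 per list by the size of the difference at equal size, any gene of the forebrain, hindbrain and retinoic acid lists, and 5 per direction by difference and by share. Some named genes are not reported here. Named regions are the widest exclusive peaks. Columns of other series: 0.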

Additional observations from a re-analysis of the deposited data

Results flagged for a closer look

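Peaks outside chromosomes 1 to 22 entered no comparison. They made up 7.78% of the pNE_T list, 7.66% of the pNE_M list and 7.14% of the pNE_H list, and are listed here as data that were deposited and not analysed.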

How the results depend on the processing

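No paired analysis was possible because each group is 1 peak list that carries no value per replicate; for the same reason no replicate could be left out. Over all widths, in every setting run, pNE_M and day 2 pNE were open at a larger share of pNE_H-only than of pNE_T-only regions, and pNE_H-only regions were the more numerous. The settings are given against the deposited lists. With pNE_T, pNE_M and pNE_H at equal list size, exclusive regions numbered 56148 (pNE_T) and 61072 (pNE_H), pNE_M was open at 25.2% and 39.8% of them and pNE at 30.4% and 36.3%, and 2554 genes leaned to pNE_T and 1942 to pNE_H. With all 10 lists cut to 162041 peaks, pNE_H-only regions numbered 48240 (pNE_T-only 45057), pNE_M was open at 26.7% of pNE_T-only and 40.1% of pNE_H-only regions, pNE at 33.9% and 38.4%, and 2268 and 1728 genes leaned. With the widest 50% of each list there were 17444 and 64294 regions, shares of 14.9% and 31.5% for pNE_M and 20.0% and 28.6% for pNE, and 96 genes leaning to pNE_T. With peaks covering at least 50% of a region, the shares were 12.0% and 25.1% for pNE_M and 15.9% and 24.4% for pNE. With regions over 1 kb from a gene end, pNE was open at 27.1% of pNE_H-only regions. With the nearest gene end in place of the window, 80 genes leaned to pNE_T and 6665 to pNE_H. With peaks of at least 300 bp, a minimum added after the data were seen, there were 17067 and 60489 regions, shares of 13.1% and 28.4% for pNE_M and 20.2% and 28.8% for pNE, and 7044 genes leaning to pNE_H. The side with more leaning genes thus turned in the settings that equalise list size, where the cut itself removes peaks of pNE_H.

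Of 143 named genes, 33 that leaned as deposited had the opposite sign of difference (pNE_H-only minus pNE_T-only) at equal size. Those reported here were CLSTN2 -16, MEIS2 -9, GRHL2 -7, WNT5A -5, FGFR1, HNF4A, NR2F1 and RARA -4, CNPY1, DLL1, GSC, HOXC8, HOXC9, SOX1 and TFAP2B -3, CDH1, EMX2, HOXC12, MEIS1 and OTX2 -2, and DLX5, EGR2, EMX1, FEZF1, HOXA2, HOXA3, HOXB1, HOXB3, LHX9, NKX2-1 and WNT8B -1. With all 10 lists at 1 size it was 29 genes, of which those reported here were CLSTN2 -8, DLL1 and GRHL2 -6, HNF4A and HOXC9 -5, FGFR1 -4, FEZF1, HOXC12, HOXC8 and MEIS2 -3, CDH1, DLX5, GSC, HOXA3, HOXD3, HOXD4, RARA, RARG, RXRA and WNT5A -2, and BARHL2, CNPY1, EMX1, FGF3, HOXA2, OTX2, SOX1 and WNT8B -1. It was 4 genes with the widest 50% (HOXC9 and WNT8B -1, IGFL1 and NEUROG1 1), 3 with peaks of at least 300 bp (HOXC9 -2, IGFL1 and NEUROG1 1), 1 with the nearest gene end (HOXB2 -1) and 0 with 50% cover. Apart from list size, whose effect follows from the cut, the cause was not tested. Depth per library is unknown, so how far it limits any count cannot be said.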
